A study of Mus musculus with 4 samples.

Results

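The 10 genes described here are Hoxa2, Hoxa3, Hoxa4, Hoxa5, Hoxb2, Hoxb3, Hoxb4, Hoxb5, Hoxb6 and Hoxc4, 10 of the 32287 features in the count matrices. They were chosen by name as the anterior to middle HOX genes, and 29 other HOX genes of the matrices served for comparison. The cells were aortic smooth muscle cells (SMCs) of Wnt1-Cre2; mT/mG mice 12 weeks old, and every group carried these alleles. In such mice cells express a membrane tdTomato until Cre acts, and descendants of Wnt1-Cre2-expressing cells, chiefly the neural crest, then express membrane eGFP instead. Single viable ITGA8-positive cells were sorted after digestion in the cold, in 4 libraries: Root (aortic root, eGFP and tdTomato cells together), Asc-GFP and Asc-RFP (ascending aorta, sorted by reporter) and Arch-GFP (aortic arch). Each group was 1 library, and how many animals it pooled is stated nowhere in the labels, so no spread between animals could be estimated and no test was made.

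HOX genes encode homeodomain transcription factors that lie in 4 clusters and give cells along the body axis their position. Low-numbered paralogues are expressed from the hindbrain level backwards, and higher-numbered ones begin further towards the tail. Retinoic acid activates the anterior genes in the embryo, and adult SMCs are known to keep part of the HOX code of their place of origin. In the proximal aorta, neural crest and mesoderm from the second heart field both supply SMCs.

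Requiring 1000 or more genes, and no more than 10% of unique molecular identifiers (UMIs) from mitochondrial genes, kept 2960 Root, 4030 Asc-RFP, 6408 Asc-GFP and 8031 Arch-GFP barcodes. Root cells were split by reporter into 1832 tdTomato cells (at least 2 tdTomato and under 8 eGFP UMIs) and 576 eGFP cells (at least 8 eGFP and at most 1 tdTomato UMI), which leaves out 37 cells with both and 515 with neither. The groups held 25723731 (Root tdTomato), 7670195 (Root eGFP), 53961182 (Asc-RFP), 84107726 (Asc-GFP) and 100987052 (Arch-GFP) UMIs, with medians of 12628 to 13747 UMIs per cell. Levels are given in CPM, the UMIs of a gene summed over the cells of a group, per 1000000 UMIs of that group. The eGFP level was 3673 to 3838 CPM in the eGFP groups and 16.4 to 29.9 CPM in the tdTomato groups. All 12 SMC markers were detected in every group, with summed levels of 48308 to 55555 CPM. Macrophage markers summed to 723 CPM in Root tdTomato, 23.1 in Root eGFP, 188 in Asc-RFP, 5.81 in Asc-GFP and 0.970 in Arch-GFP, and cardiomyocyte markers to 1067, 374, 397, 116 and 68.6. Female cells, counted by Xist against Y-linked genes, made up 87.0% and 88.2% of the Root tdTomato and eGFP cells, 54.4% of Asc-RFP, 70.1% of Asc-GFP and 29.1% of Arch-GFP. Between 4 and 18 kept barcodes were shared by any pair of libraries.

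All intervals are 95% and exact (Poisson for levels, conditional binomial for ratios, binomial for shares), and they cover counting error only. A group with 0 UMIs is set against a floor of 3 counts. The method counts the 3′ ends of transcripts, so levels were compared between groups and not between genes.

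The members with values high enough to compare lie in the HoxA cluster on chromosome 6 (minus strand) and the HoxB cluster on chromosome 11 (plus strand, mm10). Hoxb4 spans chr11:96318267-96321638, Hoxb3 chr11:96323326-96347930 and Hoxb2 chr11:96350525-96354012, side by side, and Hoxa2 spans chr6:52162417-52164831 and Hoxa3 chr6:52169062-52213336. Promoter windows are shown for Hoxb4, the member with the largest differences, for Hoxa2, the member with the smallest, and for Hoxd4, the gene of the same paralogue group as Hoxb4 whose UMIs followed the reporter. Each is the 250 bases before the RefSeq start (GRCm38.p6), written 5′ to 3′ on the gene's strand, and capitals mark a match to a motif on either strand, so that AGGTCA reads TGACCT where it lies on the other one.

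Hoxb4, chr11:96318017-96318266, plus strand: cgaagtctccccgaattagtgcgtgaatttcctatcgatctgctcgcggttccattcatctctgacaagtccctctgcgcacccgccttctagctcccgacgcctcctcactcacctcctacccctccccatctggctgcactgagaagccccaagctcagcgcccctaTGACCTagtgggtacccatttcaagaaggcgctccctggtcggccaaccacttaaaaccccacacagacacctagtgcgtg

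Hoxa2, chr6:52164832-52165081, minus strand: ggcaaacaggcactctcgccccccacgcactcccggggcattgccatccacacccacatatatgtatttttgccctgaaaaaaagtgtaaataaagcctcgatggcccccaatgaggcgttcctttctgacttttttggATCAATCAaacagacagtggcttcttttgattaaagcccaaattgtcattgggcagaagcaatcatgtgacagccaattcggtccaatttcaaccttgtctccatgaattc

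Hoxd4, chr2:74721728-74721977, plus strand: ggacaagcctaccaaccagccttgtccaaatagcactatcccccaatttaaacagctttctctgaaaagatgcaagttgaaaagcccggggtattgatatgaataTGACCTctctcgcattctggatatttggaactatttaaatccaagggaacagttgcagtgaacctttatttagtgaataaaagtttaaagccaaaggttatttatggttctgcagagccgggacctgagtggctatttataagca

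The motifs were TGATNNAT (the form of site bound by HOX proteins together with TALE partners), TAATTA (a homeodomain core) and AGGTCA (the half-site of nuclear receptors, retinoic acid receptors among them), searched on both strands. Hoxb4 and Hoxd4 each held 1 AGGTCA, 81 and 145 bases before the start, a motif found in 14.0% of 32851 promoter windows of that length. Hoxa2 held 1 TGATNNAT, 111 bases before the start, a motif found in 7.68% of the windows. None of the 3 windows held TAATTA, which 4.84% of the windows did. The RefSeq table had windows for 5 of the 10 members.

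Of the 10 members, 7 were detected in all 5 groups: Hoxa2, Hoxa3, Hoxa4, Hoxa5, Hoxb2, Hoxb3 and Hoxb4. Together the 10 members gave 67.9 CPM (64.7 to 71.1) in Root tdTomato, 46.9 (42.2 to 52.0) in Root eGFP, 105 (102 to 107) in Asc-RFP, 103 (101 to 105) in Asc-GFP and 111 (109 to 113) in Arch-GFP. The summed level was therefore lower in both sets of Root cells than in the other 3 groups, and lowest in the Root eGFP cells.

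**Figure D1:**
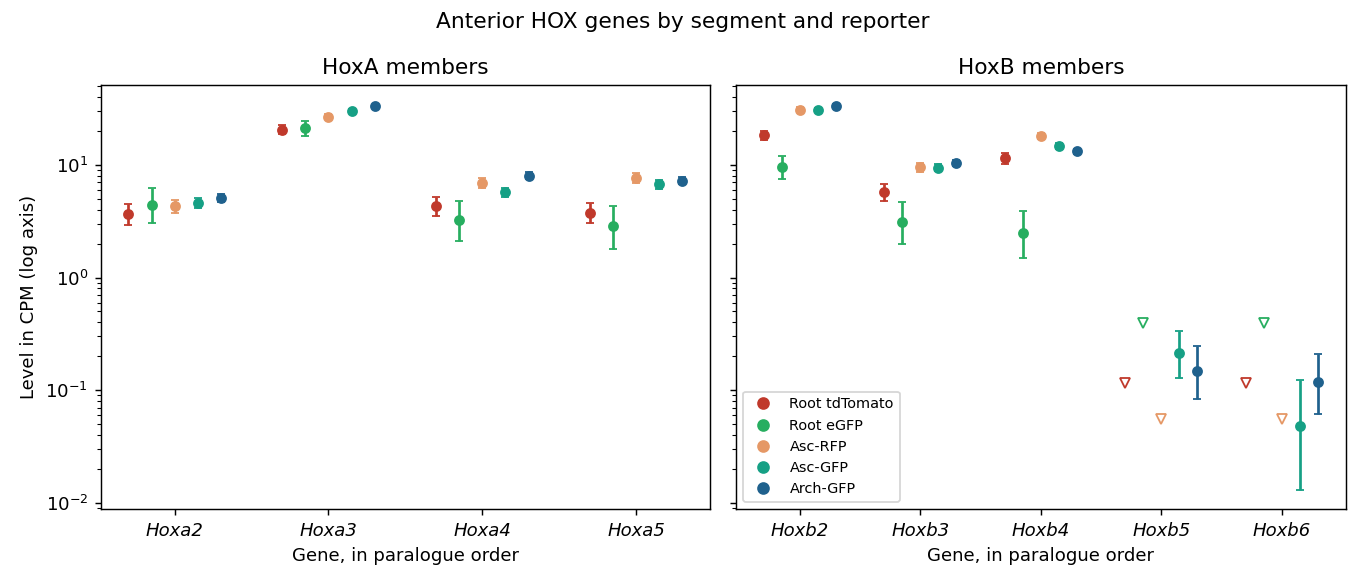
Level of each member in CPM (log axis) against the gene in paralogue order, for the 5 groups of cells; bars are exact 95% Poisson intervals and open triangles mark the 3-count floor of groups with 0 UMIs. Hoxc4 is not drawn. Hoxb2, Hoxb3 and Hoxb4 are lowest in Root eGFP, while Hoxa2 lies between 3.65 and 5.12 in all groups.

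Hoxa2, the HOX gene that patterns the second pharyngeal arch, was measured at 3.65 CPM (2.95 to 4.47) in Root tdTomato, 4.43 (3.07 to 6.19) in Root eGFP, 4.28 (3.75 to 4.87) in Asc-RFP, 4.58 (4.13 to 5.06) in Asc-GFP and 5.12 (4.69 to 5.58) in Arch-GFP. No neighbours in the order of these levels differed beyond counting error, but the intervals of the lowest (Root tdTomato) and highest (Arch-GFP) did not overlap. Hoxb2, its paralogue in the HoxB cluster, stood at 18.3 (16.7 to 20.04), 9.65 (7.58 to 12.1), 31.1 (29.7 to 32.7), 31.1 (29.9 to 32.3) and 33.6 (32.4 to 34.7) CPM in the same order of groups. Its Root eGFP level lay below its Root tdTomato level, and both lay below the other groups. Asc-RFP and Asc-GFP did not differ beyond counting error. Arch-GFP was above them, by log2 0.11 (0.04 to 0.18) over Asc-GFP and 0.11 (0.02 to 0.19) over Asc-RFP.

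Hoxa3, which is needed for the third pharyngeal arch and the carotid artery that forms in it, stood at 20.6 (18.9 to 22.5) in Root tdTomato, 21.1 (18.0 to 24.6) in Root eGFP, 26.8 (25.4 to 28.2) in Asc-RFP, 30.5 (29.3 to 31.7) in Asc-GFP and 33.2 (32.1 to 34.3) CPM in Arch-GFP. Among neighbours in this order only the Root pair overlapped. Hoxb3, its HoxB paralogue, stood at 5.71 (4.83 to 6.72), 3.13 (2.005 to 4.66), 9.53 (8.72 to 10.4), 9.49 (8.84 to 10.2) and 10.4 (9.75 to 11.0) CPM. Both Root sets were below the 3 other groups, with the eGFP set the lower.

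Hoxa4 was measured at 4.32 (3.55 to 5.20) in Root tdTomato, 3.26 (2.11 to 4.81) in Root eGFP, 6.97 (6.28 to 7.71) in Asc-RFP, 5.71 (5.21 to 6.24) in Asc-GFP and 8.03 (7.49 to 8.60) CPM in Arch-GFP. The arch was the highest group, and its interval overlapped only that of Asc-RFP. Hoxb4, a paralogue of Hoxa4, stood at 11.5 (10.2 to 12.9), 2.48 (1.49 to 3.87), 18.1 (17.0 to 19.3), 14.8 (13.9 to 15.6) and 13.3 (12.6 to 14.0) CPM. Its highest level was in the Asc-RFP cells, where no other group's interval overlapped it, and its Root eGFP level rested on 19 UMIs.

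Hoxa5, a regulator of lung and axial skeleton development, stood at 3.77 (3.06 to 4.60), 2.87 (1.80 to 4.34), 7.71 (6.99 to 8.49), 6.73 (6.19 to 7.31) and 7.28 (6.76 to 7.82) CPM. The 2 Root sets overlapped each other, as did the 3 other groups, and the sets were apart. Hoxb5 had 18 UMIs in Asc-GFP (0.214 CPM, 0.127 to 0.338) and 15 in Arch-GFP (0.149 CPM, 0.0831 to 0.245), with 0 in Asc-RFP and in both Root sets. Its Asc-GFP level would have given 11.5 UMIs in Asc-RFP and was 3.85-fold the floor of 3 counts there, leaving out counting error in the 18 UMIs. It would have given 5.51 UMIs in Root tdTomato, above the floor of 3 counts, but 1.64 in Root eGFP, where a difference was not detectable at this depth. Hoxb6 had 4 UMIs in Asc-GFP (0.0476 CPM, 0.0130 to 0.122), 12 in Arch-GFP (0.119 CPM, 0.0614 to 0.208) and 0 in the 3 other groups, and Hoxc4 had 1 UMI in Arch-GFP and none elsewhere.

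Within the Root library, 1 of the 7 measured members, Hoxb4, was at least 2-fold lower in eGFP than in tdTomato cells, and none was 2-fold higher. A gene counted as measured where 1 of the compared sets reached 1 CPM, and of 12614 such genes 5.06% were 2-fold lower and 1.32% higher. The Hoxb4 reading was 2.48 against 11.5 CPM, a log2 ratio of -2.21 (-2.96 to -1.54). The eGFP reading was not separated from the background described in the next paragraph, which rests on 4 UMIs. If that background is free RNA, shared by both sets, the ratio is a lower bound on the size of the difference. The log2 ratio was -0.92 (-1.30 to -0.57) for Hoxb2 and -0.87 (-1.56 to -0.24) for Hoxb3, both lower in eGFP cells beyond counting error. The 4 HoxA members showed no difference beyond counting error, at 0.28 (-0.33 to 0.86) for Hoxa2, 0.03 (-0.23 to 0.29) for Hoxa3, -0.40 (-1.09 to 0.23) for Hoxa4 and -0.39 (-1.13 to 0.28) for Hoxa5. The median over the 7 was -0.40, and over all genes 0.001. The tdTomato set holds the more macrophage and cardiomyocyte markers (above), and without the cells carrying macrophage or endothelial markers the Hoxb4 ratio was -2.23. That setting did not take out cardiomyocyte marker RNA, and the part of other cell types in the difference was not tested. Most cells of both sets were female, and in the male cells (64 eGFP and 225 tdTomato) the Hoxb3 ratio turned to 0.29 (-1.78 to 1.99, 4 and 13 UMIs) and the Hoxa3 ratio to -0.72 (-1.78 to 0.21), while Hoxb2 and Hoxb4 stood at -0.73 (-2.02 to 0.35) and -1.91 (-5.02 to 0.07), all with intervals that spanned 0. In the female cells the Hoxb3 ratio was -1.17 (-1.997 to -0.44) and the Hoxa3 ratio 0.18 (-0.10 to 0.46). Hoxb2 and Hoxb4 stood at -0.92 (-1.32 to -0.53) and -2.17 (-2.97 to -1.46) there. With at least 2000 genes and at most 5% mitochondrial UMIs the Hoxa3 ratio was 0.29, the highest of its settings, and after thinning to 4000 UMIs the Hoxb3 ratio was -0.35.

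Root cells with at least 20 macrophage marker UMIs (90 cells) gave 9675 CPM of the SMC gene Acta2, RNA that macrophages should lack. Whether it was free RNA or came from doublets was not tested. The levels in these cells are called background here, and they overstate free RNA to the extent that doublets contributed. The same cells gave 4.13 CPM of Hoxb4 (1.13 to 10.6, 4 UMIs) and 6.20 CPM of Hoxb2 (2.27 to 13.5). A Hoxb4 UMI was found in 2.95% of Root eGFP cells (1.73 to 4.68) and in 4.44% of the macrophage-marker cells (1.22 to 11.0), at median depths of 12776.5 and 8817 UMIs. By these intervals the Hoxb4 reading in Root eGFP cells was not separated from this background, which rests on 4 UMIs in 90 cells. In Root tdTomato, 13.1% (11.6 to 14.7) of cells had a Hoxb4 UMI, at a median of 13747 UMIs. Thinned to 4000 UMIs, the shares were 4.84% (3.90 to 5.94) in Root tdTomato and 2.94% (0.36 to 10.2) in 68 macrophage-marker cells. These intervals overlap, as did those of the levels (10.2 to 12.9 and 1.13 to 10.6 CPM). A Hoxb2 UMI was found in 10.9% (8.51 to 13.8) of Root eGFP and 6.67% (2.49 to 13.9) of the macrophage-marker cells, and a Hoxb3 UMI in 3.82% (2.41 to 5.73) and in 0 of 90 (up to 3.33%), so neither was separated from background by these intervals. The intervals of Hoxa2, Hoxa4 and Hoxa5 also overlapped. Only Hoxa3 of the 7 was separated, with a UMI in 22.4% (19.1 to 26.0) of Root eGFP cells against 2.22% (0.27 to 7.80). Ratios against Root eGFP are thus ratios of readings from which no background was taken. After thinning to 4000 UMIs per cell, Hoxb4 was found in 4.84% of Root tdTomato, 1.05% of Root eGFP, 7.05% of Asc-RFP, 5.86% of Asc-GFP and 5.31% of Arch-GFP cells. Thinning left out 122 Root, 415 Asc-RFP, 283 Asc-GFP and 787 Arch-GFP cells.

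Within the ascending aorta, none of the 7 measured members differed 2-fold between Asc-GFP and Asc-RFP, where 0.793% of 12237 genes were 2-fold higher and 2.37% lower. The largest differences were -0.30 (-0.42 to -0.17) for Hoxb4 and -0.29 (-0.49 to -0.09) for Hoxa4, both lower in Asc-GFP. Next came Hoxa5 at -0.20 (-0.38 to -0.01), also lower in Asc-GFP, and Hoxa3 at 0.19 (0.09 to 0.28), higher in Asc-GFP. Hoxb2 and Hoxb3 were level at -0.00 (-0.09 to 0.09) and -0.01 (-0.17 to 0.16). The median of the 7 was -0.01, and of all genes 0.02.

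The reporter contrast of the ascending aorta exceeded that of the root by 1.92 (1.24 to 2.60) log2 for Hoxb4, 0.92 (0.56 to 1.29) for Hoxb2 and 0.86 (0.22 to 1.51) for Hoxb3. For Hoxa2, Hoxa3, Hoxa4 and Hoxa5 this difference was -0.18, 0.15, 0.12 and 0.20, with intervals that spanned 0. The 3 HoxB members were thus lower in eGFP than in tdTomato cells by more in the root than in the ascending aorta, and the 4 HoxA members showed no such excess beyond counting error. The Hoxb4 value rests on the Root eGFP reading that was not separated from background. Among the Root eGFP readings of these members, only that of Hoxa3 was separated from background (above). The intervals of the 4 HoxA members overlap that of Hoxb3, with -0.49 to 0.89 for Hoxa5. The Hoxb3 ratio within the root turned in male cells (above), and the intervals hold no spread between animals.

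**Figure D2:**
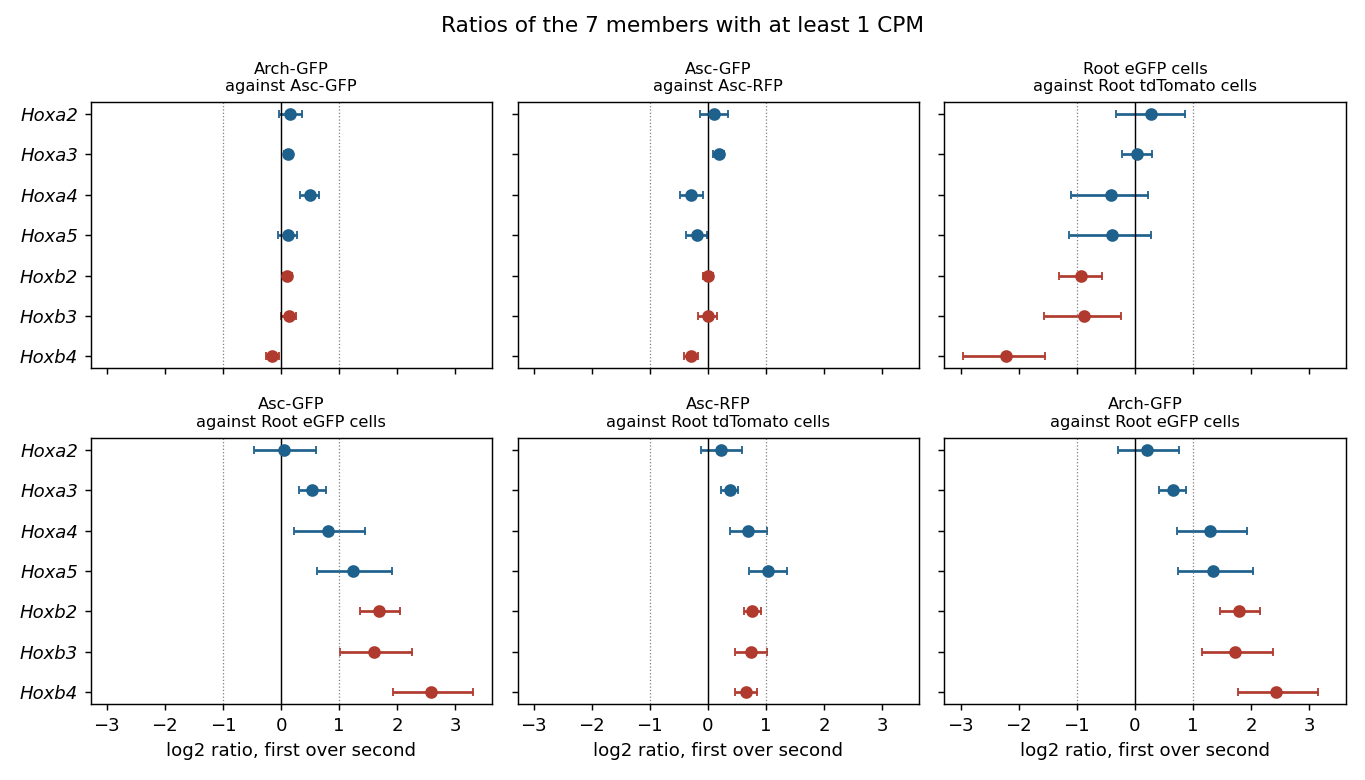
log2 ratio of the level of the 7 measured members in each of 6 comparisons (first group over second), with exact 95% intervals for counting error; blue is HoxA, red is HoxB, and dotted lines mark 2-fold. Hoxb4 stands at -2.21 in Root eGFP against Root tdTomato and at 2.57 in Asc-GFP against Root eGFP.

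Between segments of the eGFP cells, 4 of 7 members (Hoxb4, Hoxb2, Hoxb3 and Hoxa5) passed 2-fold with higher levels in Asc-GFP than in Root eGFP, and none was lower, against 2.13% of 12277 genes 2-fold higher and 2.83% lower. The Hoxb4 reading was 5.96-fold higher (log2 2.57, 1.93 to 3.31). The Root eGFP reading was not separated from background (above). If that background is free RNA, the fold is a lower bound as far as the Root eGFP reading goes. Free RNA in Asc-GFP and Arch-GFP was not estimated. Hoxb2 was 3.23-fold (1.69, 1.36 to 2.04), Hoxb3 3.03-fold (1.60, 1.02 to 2.25) and Hoxa5 2.35-fold higher (1.23, 0.62 to 1.92). Hoxa4 was 1.75-fold (0.81, 0.23 to 1.45) and Hoxa3 1.44-fold higher (0.53, 0.30 to 0.77), and Hoxa2 was 1.03-fold with an interval across 0. The median of the 7 was 1.23, and of all genes 0.01. Arch-GFP against the same Root eGFP cells, so sharing them, had 5 of 7 members 2-fold higher, Hoxa4 (2.46-fold, log2 1.30, 0.73 to 1.94) besides those 4, and none lower, against 4.36% of 12421 genes higher and 3.33% lower. The Hoxb4 reading was 5.36-fold higher there (2.42, 1.77 to 3.16), a bound in the same sense, and the median of the 7 was 1.34 (all genes 0.05). Within each sex the Hoxa4 ratio of Arch-GFP over Root eGFP was under 2-fold, at 0.84 (0.17 to 1.58) in female and 0.81 (-0.56 to 2.69) in male cells. Hoxb4, Hoxb2, Hoxb3 and Hoxa5 stayed above 2-fold in both, and Hoxa3 reached 1.26 (0.42 to 2.27) in male cells. The part of sex was not tested. The Root eGFP cells carried more cardiomyocyte marker RNA than Asc-GFP or Arch-GFP (above), and its part in these differences was not tested.

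Between the tdTomato cells of the same segments, the levels of all 7 members were higher in Asc-RFP than in Root tdTomato, 6 of them beyond counting error, with log2 ratios of 0.23 for Hoxa2 (-0.12 to 0.59, across 0), 0.38 (0.23 to 0.52) for Hoxa3, 0.66 (0.47 to 0.85) for Hoxb4, 0.69 (0.38 to 1.01) for Hoxa4, 0.74 (0.47 to 1.01) for Hoxb3, 0.77 (0.62 to 0.92) for Hoxb2 and 1.03 (0.71 to 1.37) for Hoxa5. Only Hoxa5 passed 2-fold, 1 of 7, against 1.57% of 12550 genes higher and 4.82% lower. That single count became 0 without cells carrying macrophage or endothelial markers (log2 0.97) and 0 in female cells (0.93), and after thinning to 4000 UMIs per cell the Hoxa5 ratio was 0.53. The median of the 7 was 0.69, and of all genes -0.02.

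From the ascending aorta to the arch, none of the 7 members differed 2-fold between Arch-GFP and Asc-GFP, where 1.7% of 12168 genes were 2-fold higher and 0.362% lower. Hoxa4 was the most different, at 0.49 (0.33 to 0.66), or 1.41-fold higher in the arch, and Hoxb4 stood at -0.15 (-0.26 to -0.04), lower in the arch. The groups differ in the share of female cells, and within female cells the Hoxa4 ratio was 0.15 (-0.16 to 0.46), within male cells 0.44 (0.17 to 0.73). The part of sex in the Hoxa4 difference was not tested. The median of the 7 was 0.12, and of all genes 0.04.

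The composition of the HOX UMIs shows the same contrast as shares. HoxB members made up 52.3% of the 1746 member UMIs of Root tdTomato, 56.2% of 5640 in Asc-RFP, 53.9% of 8675 in Asc-GFP and 51.7% of 11218 in Arch-GFP, but 32.5% (27.7 to 37.6) of 360 in Root eGFP. Hoxb4 alone took 16.9%, 17.3%, 14.3% and 12.0% in those 4 groups and 5.28% (3.21 to 8.12) in Root eGFP. Hoxa3 took 45.0% (39.8 to 50.3) in Root eGFP and 25.6% to 30.4% elsewhere.

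**Figure D3:**
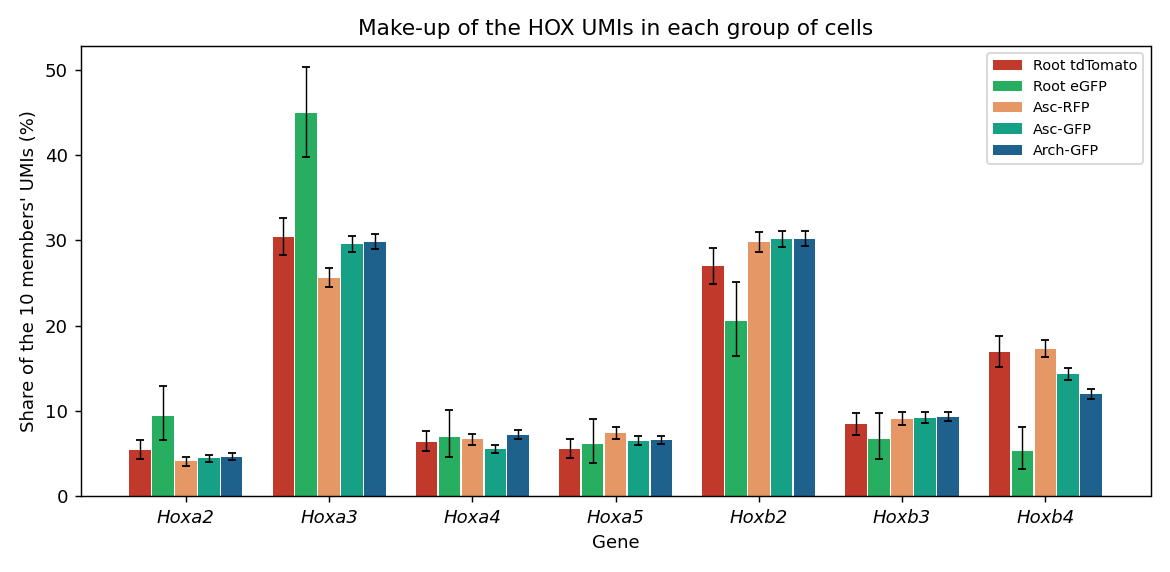
Share of the 10 members' UMIs (%) taken by each of the 7 measured members in the 5 groups, with exact 95% binomial intervals. In Root eGFP, Hoxa3 takes 45.0% and Hoxb4 5.28%, against 25.6% to 30.4% and 12.0% to 17.3% in the other groups.

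At the level of cells, 45.4% of Root tdTomato, 62.5% of Root eGFP, 32.3% of Asc-RFP, 33.8% of Asc-GFP and 32.9% of Arch-GFP cells had no UMI of any member. Thinned to equal depth, the shares were 76.7%, 81.4%, 66.6%, 67.0% and 64.6%. The Root eGFP cells stood highest and the 3 groups from beyond the root lowest on both measures. After thinning, the intervals of Root eGFP (78.0 to 84.5) and Root tdTomato (74.7 to 78.7) overlapped.

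Among the 29 other HOX genes, Hoxd4, a paralogue of Hoxa4 and Hoxb4 in the HoxD cluster on chromosome 2, was detected in the eGFP groups and in neither tdTomato group. It had 9 UMIs in Root eGFP (1.17 CPM, 0.54 to 2.23), 242 in Asc-GFP (2.88, 2.53 to 3.26) and 231 in Arch-GFP (2.29, 2.002 to 2.60), and none in Root tdTomato or Asc-RFP, where 3 counts would be 0.117 and 0.0556 CPM. The Asc-GFP level would have given 155 UMIs in Asc-RFP and 74.0 in Root tdTomato. Set against the floor of 3 counts, Hoxd4 was 51.8-fold higher in Asc-GFP than in Asc-RFP. In the same way it was 10.1-fold higher in Root eGFP than in Root tdTomato, a value that rests on 9 UMIs. These folds leave out counting error in the detected level. In the eGFP cells Hoxd4 was 2.45-fold higher in Asc-GFP than in Root eGFP (log2 1.29, 0.35 to 2.44). A Hoxd4 UMI was found in 1.39% of Root eGFP, 3.57% of Asc-GFP and 2.69% of Arch-GFP cells, and, thinned to 4000 UMIs, in 0 of 571 Root eGFP, 1.22% of Asc-GFP and 0.925% of Arch-GFP cells. Hoxd4 shares 388 exon bases with Hoxd3 on the same strand, so reads there may be split between them.

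Hoxd3, next to Hoxd4, had 1 UMI in Root eGFP, 9 in Asc-GFP, 4 in Arch-GFP and 0 in the tdTomato groups. Hoxa7 was detected at 0.130 to 0.315 CPM. A further 8 had 1 to 4 UMIs in all groups together and 17 had none.

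Of the noncoding RNAs of the clusters, 4 were measured and none differed 2-fold in any comparison. Hoxb3os, which lies antisense to Hoxb3 and Hoxb2 and shares 2250 and 953 exon bases with them, stood at 33.7, 26.2, 36.1, 41.8 and 46.5 CPM in Root tdTomato, Root eGFP, Asc-RFP, Asc-GFP and Arch-GFP. Its lowest level, like those of Hoxb2 and Hoxb3, was in Root eGFP. Use of strand in counting is stated in no source used here, so part of the reads of these 3 genes may be mixed. Hoxa4 and Hoxa5 lie inside introns of Hoxa3 on the same strand, with no exon bases shared. Hotairm1, a noncoding RNA of the HoxA cluster, held 40.7 to 46.7 CPM in all groups.

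Few partners and regulators of HOX proteins differed 2-fold. Of 11 TALE homeodomain genes, which bind DNA with HOX proteins, 9 were measured and none differed 2-fold in any comparison. Meis2 stood at 126 CPM in Root tdTomato, 94.8 in Root eGFP, 97.1 in Asc-RFP, 67.9 in Asc-GFP and 66.6 in Arch-GFP, highest in Root tdTomato and lowest in the 2 eGFP groups beyond the root. All 21 chromatin regulators were measured, and 1 of them, the Polycomb gene Cbx2, was 2-fold different in 1 comparison, higher in Root eGFP (1.69 CPM, 13 UMIs) than in Root tdTomato (0.583 CPM, 15 UMIs).

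Among 15 upstream regulators, 7 or 8 were measured in each comparison. None passed 2-fold between Arch-GFP and Asc-GFP. The 3 comparisons with Root across segments each had 1 higher (Cyp26b1) and 1 lower. Asc-GFP against Asc-RFP and Root eGFP against Root tdTomato cells each had 1 lower and none higher. The lower gene of these reporter comparisons and of Asc-RFP against Root tdTomato is not reported here. Cyp26b1, the enzyme that breaks down retinoic acid, was at 0.622 CPM in Root tdTomato, 0.521 in Root eGFP (4 UMIs), 2.32 in Asc-RFP, 2.48 in Asc-GFP and 4.36 in Arch-GFP. It was 3.72-fold higher in Asc-RFP than Root tdTomato (log2 1.90, 1.14 to 2.75), 4.76-fold higher in Asc-GFP than Root eGFP (2.25, 0.87 to 4.14), and 1.75-fold higher in Arch-GFP than Asc-GFP. Egr2 was 2.69-fold lower in Asc-GFP than Root eGFP (log2 -1.43, -2.36 to -0.38) and 2.47-fold lower in Arch-GFP (-1.30, -2.21 to -0.28). Both values rest on the same 12 UMIs in Root eGFP.

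Within single libraries the members also varied with other transcription factors. In Arch-GFP, the 1986 cells with a UMI of Dlx5, Dlx6, Msx2 or Tfap2b, transcription factors of neural crest and pharyngeal arch tissue, were set against the 6045 cells without one, a split chosen after the data were seen. Their median depths were 12180 and 12811 UMIs. Hoxa5 stood at 9.78 against 6.43 CPM (log2 0.61, 0.38 to 0.83), Hoxa4 at 10.4 against 7.24 (0.52, 0.30 to 0.73), Hoxa3 at 42.1 against 30.2 (0.48, 0.37 to 0.59) and Hoxb3 at 12.6 against 9.60 CPM (0.40, 0.20 to 0.59). Hoxb2 (-0.04, -0.16 to 0.07) and Hoxb4 (-0.07, -0.25 to 0.12) did not differ beyond counting error. Hoxb6 had 10 UMIs in the cells with such a UMI and 2 in those without, and Hoxd4 stood at 3.99 against 1.71 CPM (1.22, 0.83 to 1.61).

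In Asc-GFP, 279 cells had such a UMI and were deeper, at a median of 15448 against 12889 UMIs. There Hoxa5 stood at 12.8 against 6.38 CPM (log2 1.002, 0.58 to 1.40), Hoxb4 at 21.8 against 14.4 (0.60, 0.29 to 0.90), Hoxb3 at 13.2 against 9.27 (0.51, 0.11 to 0.89), Hoxb2 at 42.5 against 30.5 (0.48, 0.26 to 0.69) and Hoxb5 at 1.54 against 0.138 CPM (7 and 11 UMIs). Hoxa2 (0.28, -0.36 to 0.87), Hoxa3 (0.14, -0.10 to 0.38) and Hoxa4 (0.33, -0.24 to 0.84) did not differ beyond counting error there. Hoxb2 and Hoxb4 were thus higher in the cells with such a UMI in Asc-GFP and not beyond counting error in Arch-GFP, a difference between the libraries that was not tested. Each split compares cells of 1 library, so it describes that library, and the part of depth was not tested.

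**Figure D4:**
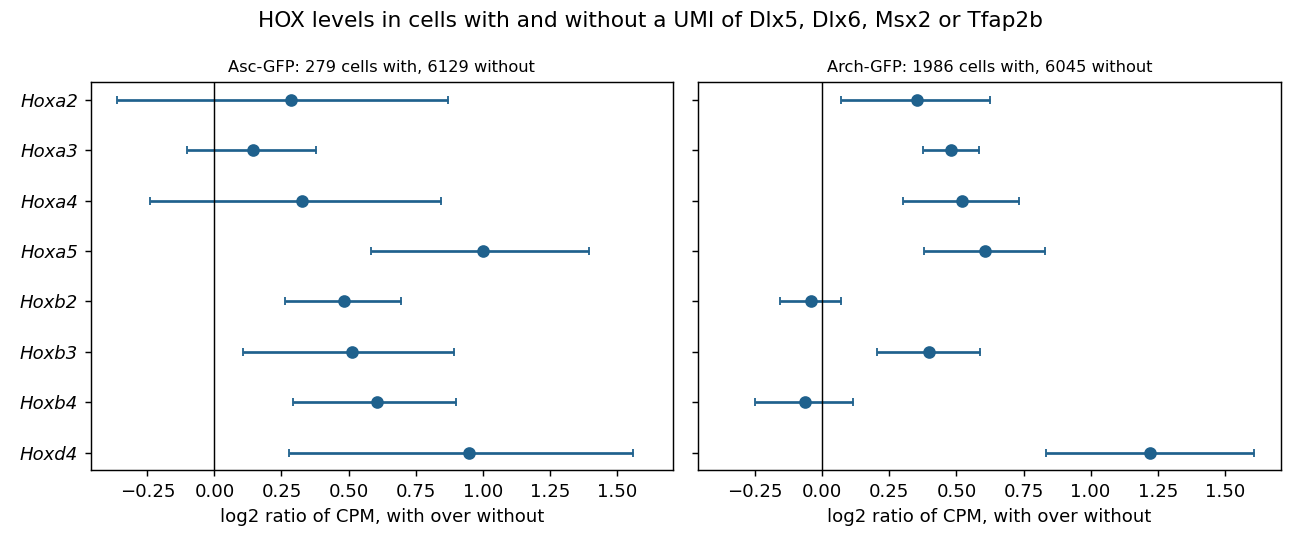
log2 ratio of the CPM of 7 members and Hoxd4 in cells with over cells without a UMI of Dlx5, Dlx6, Msx2 or Tfap2b, in Asc-GFP (279 and 6129 cells) and Arch-GFP (1986 and 6045 cells), with exact 95% intervals for counting error. In Arch-GFP the 4 HoxA members, Hoxb3 and Hoxd4 lie above 0, and Hoxb2 and Hoxb4 span it.

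The genes most like a member over the 5 groups were found by the root mean square difference of centred log2(CPM + 1), among 10114 genes with at least 5 CPM in a group. Over these 5 points, which share libraries and depth, Hoxb2 was closest to Hoxb3 (0.095) and then to Mfap4 (0.115), a microfibril-associated protein. Hoxb3 was closest to Mfap4 (0.046), whose levels were 525, 355, 872, 884 and 954 CPM. Hoxa4 was closest to Slco3a1 (0.031) and Hoxa5 to Mrgprf (0.065). Hoxb4 had no close match, its nearest being the homeobox gene Irx3 (0.31) and Hoxb2 (0.36).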

How the data were processed

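Single-cell RNA libraries of ITGA8-positive aortic cells were made with the 10x 3′ chemistry, per the labels' protocols. The authors deposited raw UMI counts for each barcode, from Cell Ranger 7.0.0 per the file headers. Per the submitters' processing notes, mm10 was the genome build and Seurat 4.3 was used; that output was not used here. The use of introns and strand was not given in the sources used here. The labels give 1841, 4050, 2450 and 4710 cells after a filter (Root, Asc-GFP, Asc-RFP, Arch-GFP); the filter used here kept 2960, 6408, 4030 and 8031 of 4040, 8845, 6539 and 10506 barcodes. No doublets or free RNA were removed. 51 Root cells had 4 to 15 eGFP UMIs and 804 had 1 to 3 tdTomato UMIs, near the limits that split them.

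UMIs were summed per group and divided by the total (CPM). A gene was called at 2-fold or more if 1 or both groups reached 1 CPM. Groups with 0 UMIs took a floor of 3 counts, and no fold was given where that floor exceeded the other level. Named genes were the 10 members and fixed lists of other HOX genes, cluster noncoding RNAs, TALE partners, upstream and chromatin regulators, with up to 4 of the largest ratios per list, and the 5 genes nearest in pattern to members with at least 5 CPM and a range of at least 1. Some genes of these lists are not reported here. The members and lists were chosen with earlier results of these data known. The calculations were checked on simulated counts. Positions are from GENCODE M21. Python 3.11.15, numpy 2.4.6, scipy 1.17.1 and pandas 2.3.3 were used.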

Additional observations from a re-analysis of the deposited data

How the results depend on the processing

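No paired analysis was possible because each group is 1 library. With 1 library per group no replicate could be left out either. The counts of members at least 2-fold different were recomputed under 14 to 16 other settings per comparison. Without a filter on low values they became 1 in Arch-GFP against Asc-GFP (Hoxb6) and 1 in Asc-GFP against Asc-RFP (Hoxb5). In Root eGFP against Root tdTomato cells the count of 1 became 2 in female cells and 3 at 1.5-fold. In Asc-RFP against Root tdTomato cells the count of 1 became 0 without cells carrying macrophage or endothelial markers, 0 in female cells, 3 in male cells, 0 as a mean over cells, 0 after thinning to 4000 UMIs and 5 at 1.5-fold. Counts against Root eGFP ran from 3 to 5 (Asc-GFP) and from 4 to 6 (Arch-GFP). The cause was not tested. Of 517 recomputed single-gene ratios, 494 stayed within their counting interval and 23 moved out of it; the Hoxb4 ratio of Root eGFP over tdTomato cells ran from -2.33 to -1.71, the latter among cells with at least 2000 genes and at most 5% mitochondrial UMIs, the Hoxb3 ratio from -1.17 in female to 0.29 in male cells (4 and 13 UMIs), and the Hoxa3 ratio from -0.72 in male cells to 0.29 under that stricter filter. Leaving out cells above 25000 UMIs or with both Lum and Dcn was added after the data were seen, and changed no count. Depth limits Root eGFP most: 3 counts there are 0.391 CPM, against 0.0297 in Arch-GFP.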

Other observations

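In the Root library, the 184 cells with UMIs of both Lum and Dcn, matrix proteoglycans of fibroblasts, had 0.763 CPM of Hoxa4 (2 UMIs) against 4.37 in the other cells (log2 -2.52, -5.57 to -0.64), 3.82 against 9.95 of Hoxb4 (-1.38, -2.46 to -0.49) and 8.40 against 16.5 of Hoxb2 (-0.98, -1.66 to -0.36). The intervals of Hoxa2, Hoxa3, Hoxa5 and Hoxb3 spanned 0. This split was also chosen after the data were seen.

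The barcodes that the quality filter left out gave member levels of 45.9 (Root), 115 (Asc-RFP), 102 (Asc-GFP) and 104 (Arch-GFP) CPM, against 63.3, 105, 103 and 111 in the kept barcodes. Hoxd4 had 9 UMIs in the left-out Asc-GFP barcodes, 7 in Arch-GFP, 1 in Root and 0 in Asc-RFP.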
